A study of Homo sapiens with 47 samples.

Results

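The 10 genes described here are outputs and negative regulators of the RAS-MAPK pathway, and they were chosen by name: DUSP4, DUSP5, DUSP6, SPRY2, SPRY4, SPRED1, SPRED2, ETV4, ETV5 and PHLDA1. All 10 were found among the 25739 genes with expression values. Values were analyzed for 37 circulating tumor cells (CTCs) from 5 mice and for 6 cells of the same line grown in culture. The line is MDA-MB-231-LM2 (LM2), a human triple-negative breast cancer line derived from MDA-MB-231 that spreads to the lungs, and it carried GFP. LM2 cells had been placed in the mammary fat pad of NOD/SCID gamma mice, which lack mature lymphocytes, and CTCs were enriched from blood by size and picked singly by their GFP. There were 2 CTCs from mouse 5541, 4 each from mice 5542 and 5549, 10 from mouse 5545 and 17 from mouse 5546. The labels give the mice no treatment or group and put all 47 labelled cells in 1 batch. The 6 cultured cells were taken as 1 culture, so that differences between CTCs and culture have no replicate on the side of the culture.

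In the RAS-MAPK pathway, activated receptors load RAS with GTP, RAS engages the RAF kinases, and these activate MEK and then ERK. ERK induces a small set of genes that report on its activity and in part restrain it. DUSP4, DUSP5 and DUSP6 encode phosphatases that remove phosphate from ERK, DUSP6 in the cytoplasm and DUSP4 and DUSP5 in the nucleus. SPRY2 and SPRY4 encode Sprouty proteins, which dampen signaling from receptor tyrosine kinases, and SPRED1 and SPRED2 encode adaptors that bring neurofibromin to RAS and oppose its activation. ETV4 and ETV5 encode ETS transcription factors, and PHLDA1 encodes a pleckstrin-homology-like protein that is induced by growth factors.

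Sequences upstream of the gene start are shown for 5 of the genes. PHLDA1 is shown because its mean level per length was the highest. DUSP6, SPRY4, SPRED1 and SPRED2 are shown because pairs of these 4 were among the most correlated over CTCs. Each is the 250 bases before a RefSeq start on GRCh38.p14, written 5′ to 3′ on the strand of the gene. Capitals mark the letters CCGGAA, the core bound by ETS factors, and TGACG, part of the cyclic AMP response element, on either strand.
PHLDA1, chr12:76031777-76032026, minus strand: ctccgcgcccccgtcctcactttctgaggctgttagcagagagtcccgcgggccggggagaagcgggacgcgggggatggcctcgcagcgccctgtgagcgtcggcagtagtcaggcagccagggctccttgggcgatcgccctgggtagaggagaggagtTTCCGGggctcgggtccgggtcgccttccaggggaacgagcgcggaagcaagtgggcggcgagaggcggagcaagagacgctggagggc
DUSP6, chr12:89352502-89352751, minus strand: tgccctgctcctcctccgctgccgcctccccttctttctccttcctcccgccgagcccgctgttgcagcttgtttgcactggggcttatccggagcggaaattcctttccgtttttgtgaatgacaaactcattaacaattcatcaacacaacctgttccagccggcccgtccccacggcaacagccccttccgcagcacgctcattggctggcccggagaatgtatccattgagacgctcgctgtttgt
SPRY4, chr5:142324248-142324497, minus strand: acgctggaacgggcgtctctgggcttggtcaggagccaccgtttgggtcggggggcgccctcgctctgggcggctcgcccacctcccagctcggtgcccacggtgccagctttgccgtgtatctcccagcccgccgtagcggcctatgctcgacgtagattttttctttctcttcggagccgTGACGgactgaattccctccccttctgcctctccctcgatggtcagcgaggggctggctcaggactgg
SPRED1, chr15:38252586-38252835, plus strand: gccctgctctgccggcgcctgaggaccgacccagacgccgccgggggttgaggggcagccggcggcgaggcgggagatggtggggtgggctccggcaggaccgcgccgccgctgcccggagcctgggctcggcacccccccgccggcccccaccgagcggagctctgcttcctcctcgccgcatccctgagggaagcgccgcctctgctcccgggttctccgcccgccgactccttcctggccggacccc
SPRED2, chr2:65432600-65432849, minus strand: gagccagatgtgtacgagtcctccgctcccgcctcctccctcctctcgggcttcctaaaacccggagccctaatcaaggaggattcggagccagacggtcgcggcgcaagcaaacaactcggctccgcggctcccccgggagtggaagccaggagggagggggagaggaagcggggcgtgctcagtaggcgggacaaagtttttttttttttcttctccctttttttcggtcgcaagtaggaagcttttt
Of these windows, that of PHLDA1 held 1 CCGGAA and that of SPRY4 held 1 TGACG, and no TGANTCA, the letters bound by AP-1 factors, was present in any of the 5. Over all 35116 RefSeq windows of the same length, CCGGAA was in 14.5%, TGACG in 21.2% and TGANTCA in 6.57%. SPRY2 has 3 windows, of which 1 held 1 CCGGAA and 1 TGACG. RefSeq windows were matched for 6 of the 10 genes. The GC content of the printed windows was 70.4% for PHLDA1, 57.2% for DUSP6, 65.6% for SPRY4, 78.4% for SPRED1 and 58.8% for SPRED2. SPRED2 has a further RefSeq start, whose window held none of these letters. These matches describe letters and not sites of binding.

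The depth behind the values was 469614 to 2041333 reads on genes per CTC (median 1257540) and 776949 to 1186197 per cultured cell. VIM, the mesenchymal filament of this line, was at 2893 or more in every CTC, and CDH1, ESR1 and PGR had a value in 1, 1 and 3 CTCs. CD44 and the epithelial keratins KRT18 and KRT8 had a value in all 37 CTCs, the keratins with medians of 884 and 493, and EPCAM had one in 8 CTCs and 5 of 6 cultured cells. Reads on genes of blood cells were present in CTCs. The blood was that of mice, reads were aligned to the human genome alone, and a mouse origin of these reads was not tested. The 4 erythroid genes that matched of 6 (HBA2, HBB, HBD and ALAS2) summed to 0 to 15558 per CTC with a median of 1289, and all 4 were at 0 in every cultured cell. The 4 of 6 leukocyte genes that matched summed to 0 to 429 per CTC (median 2.27) and 0 to 7.96 per cultured cell, with PTPRC and ITGAM at 0 in culture. The 5 platelet genes reached a sum of 77.3 in CTCs and 3.23 in culture, 2 of 4 endothelial genes reached 28.6 and 37.1, and 5 fibroblast genes reached 190 and 37.99. Over CTCs, the number of the 10 genes detected had a Spearman's ρ of -0.14 with the erythroid sum and -0.13 with the leukocyte sum, and the part of these transcripts in the results was not tested. In mouse 5546, 9 library names hold a c and 8 an s, letters left unexplained by the sources used here. The s libraries had 4225 to 6942 genes detected against 7438 to 11010 in the c libraries. Cultured cells LM-P3 and LM-P4, names also left unexplained, had the most genes detected, 12271 and 11814. CTC 5545-6 stood apart with the fewest, 2227, and of the 10 genes it held ETV4 (11.1) and ETV5 (27.6) alone.

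The first comparison asked how far each gene lay from culture in the CTCs of each mouse. All values are normalized counts, that is, reads after division by a size factor that scales each cell. The MAPK phosphatases, ETS factors and PHLDA1 were detected in most CTCs, and the range of their values over CTCs spanned that of cultured cells. For DUSP4 and DUSP6, however, most CTCs were below every cultured cell. The SPRED genes were low. No gene met the rule of a 4-fold difference from culture, in 1 direction, in the mean of every mouse, against 5.38% of the 9164 genes with a mean of at least 8. With 2-fold in place of 4-fold, again 0 of the 10 genes met it, against 25.3%. SPRY4, SPRED1, SPRED2 and ETV4 had a lower mean than culture in all 5 mice, which was also true of 60.3% of all genes. No gene of the 10 was above culture in all 5, and 95 of the 9164 genes were. These counts compare sizes, with no test, because the culture is 1 sample. In a quasi-likelihood test in edgeR of reads summed per mouse against reads summed over the culture (the lone culture being assumed to vary like the CTC sums of the mice), 0 of the 10 genes were called (smallest adjusted p = 1.00). It called 0% of the 13813 genes tested, and at an unadjusted p under 0.05 it held 1.74% of them (241 genes) and 0 of the 10. DESeq2 on the same sums called 20 of 9505 genes and 0 of the 9 of these genes that it tested.

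How these genes compared with culture depended on the measure. The median over the 10 genes of the mean log2 ratio of CTCs to culture was -0.95 on normalized counts (SD of the 5 mouse medians 0.32), beside -1.56 over all genes. On RPM, the reads of a gene scaled to the same total in each cell, it was -0.28, beside -0.81 over all genes. The median edgeR log2 fold change of the 10 genes was 0.73, beside 0.31 over the 13813 genes tested. That fold change uses trimmed-mean scaling and a model of reads summed per mouse, not a mean of log2 ratios. It thus differs from the other 2 measures in how mice are averaged as well as in scale. The median of the 10 genes stood above that of all genes by 0.61, 0.53 and 0.42 in the 3 measures. Of the 10 genes, 8, 8 and 6 were above the median of all genes, and SPRED1 and SPRED2 were below it in each measure. The median of the 10 was negative on normalized counts and on RPM and positive in edgeR. The same sign was kept in all 3 by 6 of the 10 genes. On RPM, SPRY4, SPRED1, SPRED2 and ETV4 were each above culture in at least 1 mouse. On that scale 0 of the 10 genes lay below culture in every mouse, beside 34.7% of 8777 genes. The normalized values of a CTC summed to 442223 to 1169174 and those of a cultured cell to 1161997 to 1783225. The count of 4 genes below culture also rested on single cultured cells. It was 2 without LM-P3 and 3 without LM-3, beside 58.1% and 61.4% of all genes.

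**Figure D1:**
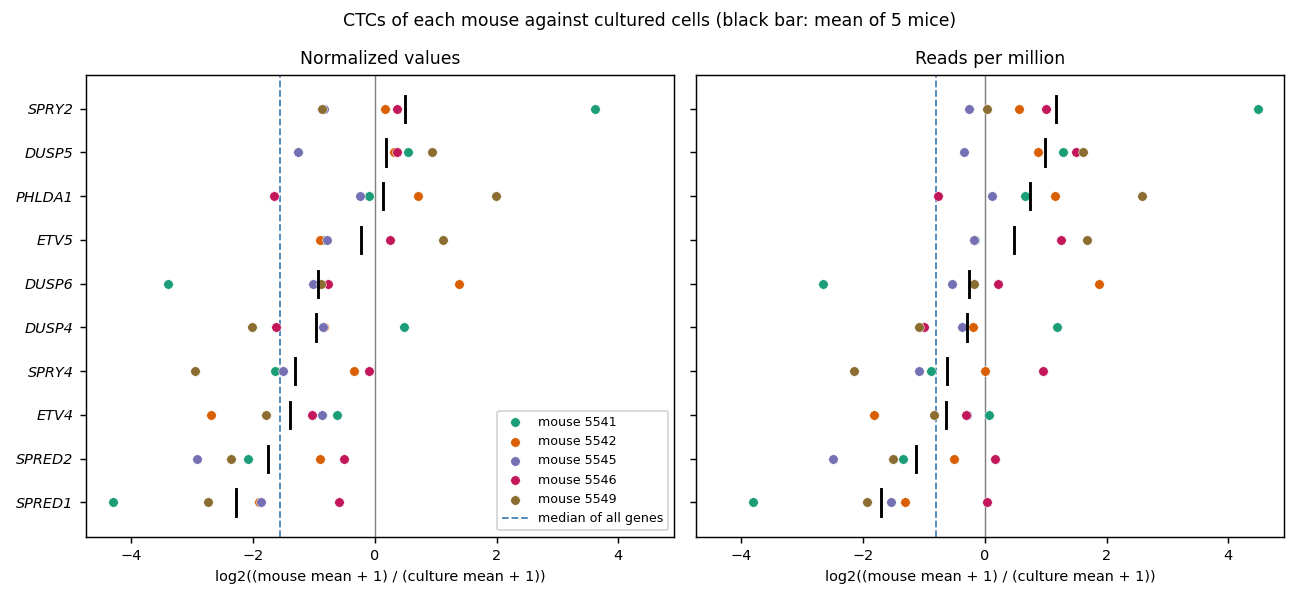
Log2 ratio of the mean of the CTCs of each mouse to the mean of cultured cells, with 1 added to both, for each gene on normalized counts (left) and on RPM (right); points are the 5 mice, black bars their mean and the dashed line the median of all genes. SPRED1 had the lowest mean on either scale and SPRY2 the highest, the latter set by mouse 5541 at 3.62 on normalized counts.

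Among the phosphatases, DUSP6 varied most between mice. Its CTCs of mouse 5541 had 16.9 and 37.4, and those of mouse 5542 had 1154, 38.3, 1647 and 278. CTCs of mouse 5549 had 0.67, 169, 12.5 and 463, those of mouse 5545 ran from 0 to 468 with a median of 43.8, and those of mouse 5546 from 6.21 to 556 with a median of 83.7. Cultured cells ran from 97.1 to 489 with a median of 289. Of the 37 CTCs, 20 were below every cultured cell and 5 above every one, and the mean of mouse 5542 was the only one above culture (log2 ratio 1.39). Over the 5 mice the mean log2 ratio of DUSP6 was -0.94 ± 1.70 (SD, n = 5). It was -0.26 on RPM, and in edgeR its sign turned, at 0.96 ± 1.30 (SE). An antisense lncRNA, ENSG00000274021, shares 1105 exonic bases with DUSP6, and reads there cannot be told apart because strand was not used. The mean of this lncRNA in CTCs was 0.55, which does not show how many reads fell on the shared bases.

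DUSP4 differed most from culture in how its cells spread. Cultured cells lay between 200 and 607, while 27 of 37 CTCs were below the lowest cultured cell and 3 were above the highest. CTC values ran from 0 to 783 with a median of 69.9, and the highest were 783 in 5545-4, 712 in 5541-5 and 699 in 5546-s5. The SD of log2(value + 1) was 2.71 over CTCs and 0.61 over cultured cells. Mouse means were 507 in 5541, 203 in 5542, 201 in 5545, 117 in 5546 and 88.3 in 5549, against 361 in culture (mean log2 ratio -0.97 ± 0.96, SD, n = 5). On RPM its mean log2 ratio was -0.30, and in edgeR the sign turned, at 0.49 ± 0.95 (SE). DUSP5 had mouse means of 87.8, 75.1, 24.4, 77.8 and 117 in the order above against 60 in culture (mean log2 ratio 0.18 ± 0.85, SD, n = 5), and only mouse 5545 was lower. Its values in CTCs ran from 0 to 433 (median 19.1) and in cultured cells from 15.5 to 106. The highest were 433 and 392, in the s libraries 5546-s1 and 5546-s8, while 3 other s libraries had 0. Leaving out mouse 5549 or cultured cell LM-10 turned the mean log2 ratio of DUSP5 to about 0 (-0.01 in both). On RPM it was 0.99, with 4 of 5 mice above culture, and in edgeR 1.45 ± 0.97 (SE).

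**Figure D2:**
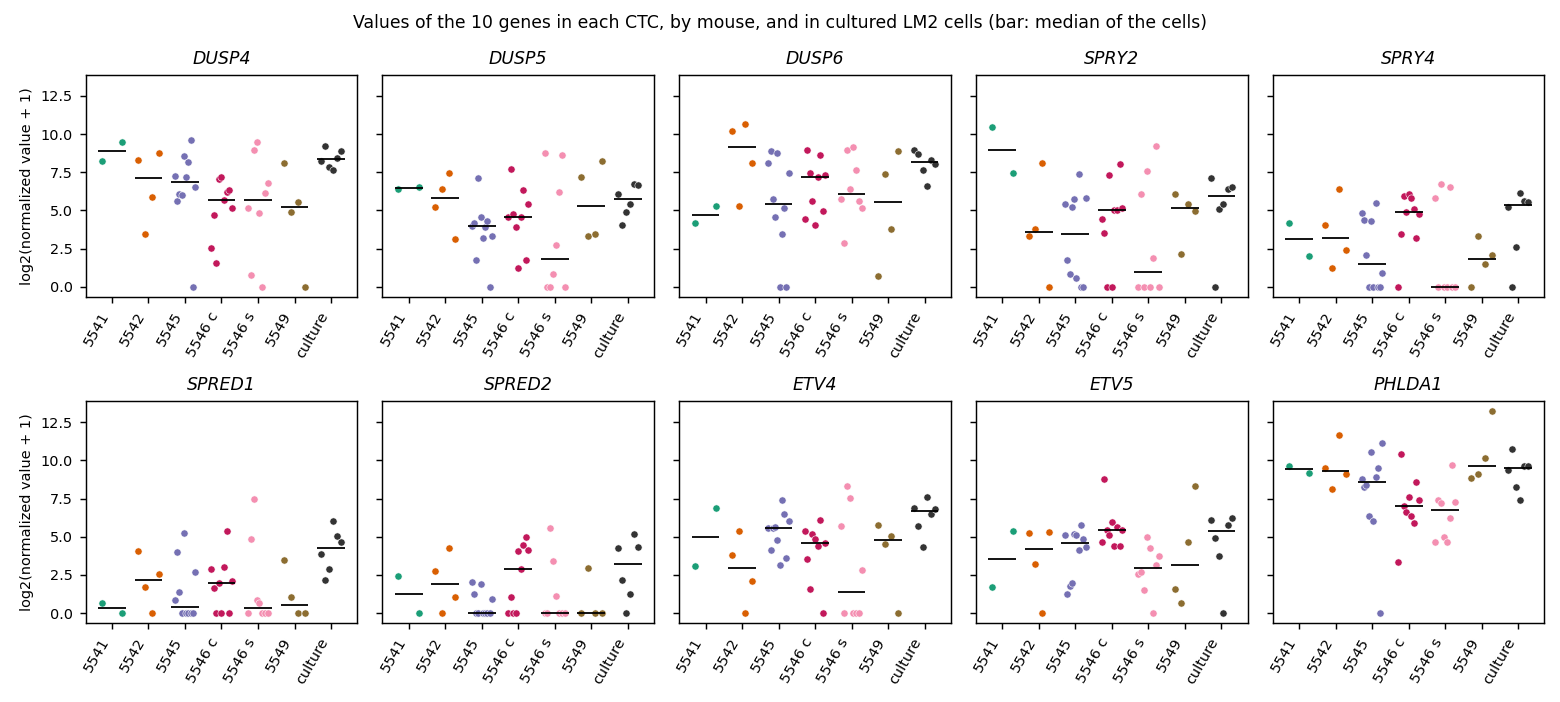
Log2(normalized value + 1) of each gene in every cell, with CTCs grouped by mouse, the c and s libraries of mouse 5546 apart, and cultured LM2 cells in black; bars are medians of the cells. Every gene reached 0 in at least 1 CTC, and SPRY2, SPRY4, SPRED2 and ETV5 also did in 1 cultured cell each.

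The Sprouty genes were each uneven over CTCs. SPRY2 was at 1432 and 170 in the CTCs of mouse 5541, at 9.03, 12.9, 268 and 0 in those of mouse 5542, and at 65.0, 3.36, 41.3 and 30.0 in those of mouse 5549. It ran from 0 to 170 (median 19.2) in mouse 5545 and from 0 to 604 (median 20.4) in mouse 5546, while cultured cells ran from 0 to 137 with a median of 62.7. CTC 5541-1 held 37.7% of the SPRY2 summed over all CTCs. On normalized counts the mean log2 ratio of SPRY2 was 0.49 ± 1.83 (SD, n = 5), and -0.29 without mouse 5541. On RPM it was 1.16, with 4 of 5 mice above culture, and in edgeR it was 2.96 ± 1.91 (SE). SPRY4 was lower, with mouse means of 10.2, 26.6, 11.3, 31.8 and 3.54 and a culture mean of 34.1. It had a value in 26 of 37 CTCs (70.3%, exact 95% interval 53.0 to 84.1%) and in 5 of 6 cultured cells. The lowest means were in mice 5549, 5541 and 5545, and in mouse 5546 the log2 ratio was -0.10. Its mean log2 ratio was -1.31 ± 1.15 (SD, n = 5), -0.63 on RPM and 0.11 ± 1.38 (SE) in edgeR, where the sign turned. In that mouse SPRY4 had a value in 8 of 9 c libraries and 3 of 8 s libraries, with means of 31.9 and 31.6.

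SPRED1 and SPRED2 were the lowest of the 10 genes per length and the least often detected. SPRED1 had a value in 21 of 37 CTCs (56.8%, exact 95% interval 39.5 to 72.9%), with a median of 6 reads where it was present, and in 6 of 6 cultured cells. Its CTC mean was 9.83, of which 1 cell, 5546-s4, held 48.9% with a value of 178, and without this cell the mean was 5.16. The next highest CTC had 41.1, and 26 of 37 CTCs were below the lowest cultured cell (3.45). Mouse means were 0.28, 5.77, 5.89, 15.9 and 2.79 against 24.3 in culture, and the mean log2 ratio was -2.28 ± 1.37 (SD, n = 5), below the median of all genes. SPRED2 had a value in 18 of 37 CTCs (48.6%, exact 95% interval 31.9 to 65.6%) and in 5 of 6 cultured cells. Its mouse means were 2.25, 6.34, 0.81, 8.65 and 1.68 against 12.8, with a mean log2 ratio of -1.76 ± 1.01 (SD, n = 5). For SPRED1 and SPRED2 the sign was negative in all 3 measures. The mean log2 ratio was -1.71 and -1.13 on RPM. In edgeR the log2 fold change was -1.03 ± 1.79 (SE) and -0.63 ± 1.99 (SE), and neither gene was called. With cells thinned to 469614 reads, the SPRED2 ratio moved to -0.72. Zeros at these few reads do not show that a gene was silent.

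The ETS factors differed from each other. ETV4 was below culture in each mouse on normalized counts, with means of 62.5, 14.0, 52.6, 46.5 and 27.2 against 96.3 (mean log2 ratio -1.40 ± 0.85, SD, n = 5). Its values ran from 0 to 326 in CTCs (median 23.6) and from 18.8 to 190 in cultured cells (median 101), with 16 CTCs below every cultured cell and 1 above. On RPM mouse 5541 was above culture, and in edgeR the log2 fold change of ETV4 was -0.03 ± 0.99 (SE). ETV4 shares 68 exonic bases with DHX8 on the other strand, whose mean in CTCs was 16.5. ETV5 had a value in 35 of 37 CTCs and means of 21.4, 20.7, 22.5, 47.3 and 87.6 against 39.5, with a mean log2 ratio of -0.23 ± 0.90 (SD, n = 5) that was 0.49 on RPM. In mice 5546 and 5549 its mean came largely from 1 CTC each, 432 in 5546-c10 and 323 in 5549-6, and without these the means were 23.3 and 9.06. ETV5 shares 164 exonic bases with DGKG, whose mean in CTCs was 1.36. The c libraries of mouse 5546 had 19.6 to 432 of ETV5 (median 42.1) and the s libraries 0 to 30.4 (median 6.69).

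By the mean over the mice, PHLDA1 was the most abundant of the 10 genes per length. By mouse it was first in 5545 and 5549 alone, while SPRY2 was first in 5541 and DUSP6 in 5542 and 5546. PHLDA1 was present in 36 of 37 CTCs. Its values were 798 and 578 in mouse 5541, 736, 277, 3248 and 550 in mouse 5542, and 461, 552, 1159 and 9636 in mouse 5549. They ran from 0 to 2300 (median 393) in mouse 5545 and from 9.40 to 1392 (median 130) in mouse 5546, while cultured cells ran from 171 to 1700 (median 724). The CTCs of mouse 5546 were mostly low, c and s libraries alike (medians 130 and 111), and its log2 ratio was -1.66, while that of mouse 5549 was 2.00. On normalized counts the mean log2 ratio of PHLDA1 was 0.14 ± 1.35 (SD, n = 5), within the spread of the mice, and -0.33 without mouse 5549. On RPM it was 0.75, with 4 of 5 mice above culture, and in edgeR it was 1.56 ± 1.00 (SE). PHLDA1-AS1 shares 553 exonic bases with PHLDA1 and had a mean of 0.018 in CTCs.

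In order of mean level per kilobase of the canonical transcript, over the mouse means, CTCs had PHLDA1 (193), SPRY2 (89.9), DUSP6 (71.0), DUSP4 (40.2), DUSP5 (30.8), ETV4 (17.4), ETV5 (9.77), SPRY4 (3.41), SPRED2 (0.87) and SPRED1 (0.84). Neighbors in this order were mostly not apart beyond the spread of the mice. SPRY4 was above SPRED2 in all 5 mice, SPRY2 was above DUSP6 in 1 of 5 although its mean was higher, SPRED2 was above SPRED1 in 2 of 5, DUSP4 was above DUSP5 in 3 of 5, and the other neighbors kept their order in 4 of 5. In culture PHLDA1 was also first per kilobase (125), followed by DUSP6 (81.9) and DUSP4 (65.1), and the last 3 were SPRY4 (6.95), SPRED1 (3.34) and SPRED2 (2.82).

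The SD of log2(value + 1) was larger over CTCs than over cultured cells for 8 of the 10 genes, all but SPRED2 (1.76 and 2.03) and ETV5 (2.04 and 2.37), beside 63.0% of all genes. For SPRY4 it was about equal (2.42 and 2.40).

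The highest values of the 10 genes were spread over several CTCs, and the CTCs described here were picked after their values were seen. CTCs 5546-s4 and 5542-4 were each among the 3 highest for 4 of the 10 genes, and 5549-6 was for 3. CTC 5546-s4 had the highest value of 4 of the 10 genes, SPRY4 (107), SPRED1 (178), SPRED2 (45.9) and ETV4 (326), and it also had 499 of DUSP4 and 491 of DUSP6, while DUSP5 and SPRY2 were at 0. This cell had 954021 reads, 6880 genes detected, an erythroid sum of 1289 and the highest leukocyte sum, 429, whose part was not tested. CTC 5549-6 had the highest PHLDA1 (9636), and DUSP5, DUSP6 and ETV5 at 303, 463 and 323, while DUSP4, SPRED1, SPRED2 and ETV4 were at 0. Among other output genes, chosen here after their values were seen, the same cell had the highest CTC value of EGR1 (8982, the next being 372), PHLDA2 (5159, next 2330) and ERRFI1 (1880, next 885), which encode an immediate early transcription factor, a relative of PHLDA1 and an inhibitor of EGFR. In the same list of 15 matched genes, ETV1, EPHA2, EPHA4, LIF and PHLDA3 were at 0 in this cell, and SPRY1, CCND1, FOSL1 and DUSP7 were the 27th, the 21st, the 18th and the 16th highest of the 37 CTCs. It had 588141 reads, 5202 genes detected, a leukocyte sum of 157 and the highest erythroid sum, 15558, whose part was not tested. CTC 5542-4 had the highest DUSP6 (1647), the second highest PHLDA1 (3248) and no ETV4 or ETV5.

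The next question was how many of the 10 genes a CTC carried at once. All 10 had a value in 11 of 37 CTCs, 9 in 5, 8 in 8, 7 in 5, 6 in 5, 5 in 2 and 2 in 1, with a median of 8. Cultured cells had 8 to 10 with a median of 9.5. PHLDA1 was detected in 36 CTCs, DUSP6 and ETV5 in 35, DUSP4 in 34, DUSP5 in 33, ETV4 in 30 and SPRY2 in 28, so that cells with fewer genes lacked mostly SPRED2, SPRED1 and SPRY4. The number followed the genes detected per cell, with a Spearman's ρ of 0.71 over the 37 CTCs, both counts coming from the same library of each cell, and of 0.73 with cells thinned to 469614 reads. The c libraries of mouse 5546 had 7 to 10 of the genes (median 9) and the s libraries 5 to 9 (median 6.5). The median over CTCs was 9 without the s libraries. Binomial intervals cover counting error only. They treat the 37 CTCs as independent, although these share mice and library sets and 17 of them come from mouse 5546. No molecular identifiers were used, so that PCR copies of 1 molecule count as several reads.

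**Figure D3:**
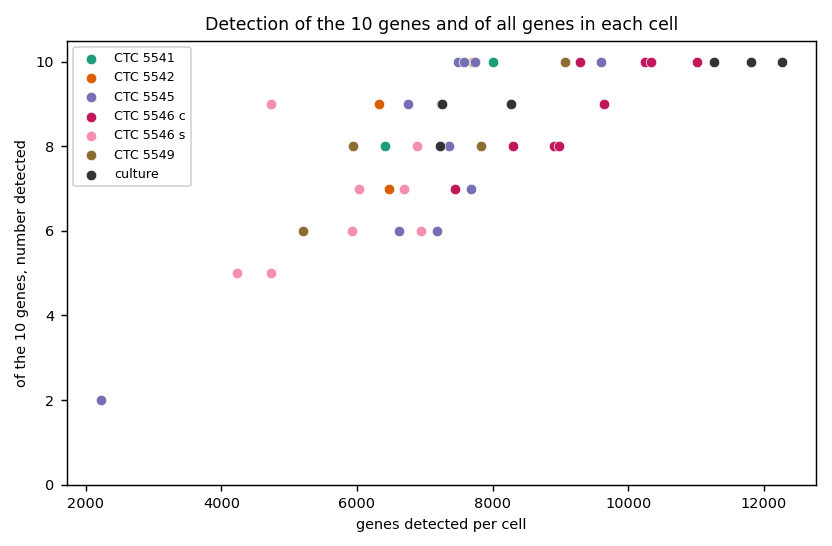
Number of the 10 genes with a value above 0 in each cell against the number of genes detected in that cell, for CTCs by mouse (c and s libraries of mouse 5546 apart) and for cultured cells. CTC 5545-6, with 2227 genes and 2 of the 10, lies apart at the lower left, and cultured cells lie at 8 to 10; cells with equal counts overlap.

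Whether the genes varied together over CTCs was examined as Spearman's ρ over the 37 CTCs for the 45 pairs. The median was 0.07 and the range -0.16 to 0.50, with 32 pairs above 0 and 4 above 0.4, and weak values over sparse counts show little. The highest were DUSP4 with ETV4 (0.50), DUSP6 with SPRED2 (0.49), SPRY4 with SPRED2 (0.46) and DUSP6 with SPRY4 (0.45). DUSP6, SPRY4, SPRED1 and SPRED2, whose upstream windows are printed above, held 5 of the 7 highest pairs. This group of 4 was chosen after the values were seen. Its ρ within mice comes from the same CTCs and is not independent of that choice. Its 6 pairs ran from 0.10 to 0.49 with a median of 0.41, beside 0.05 for the other 39 pairs, and all 4 genes were detected in 13 CTCs. Within mouse 5545 the median of the 6 pairs was 0.67, beside 0.33 for the other 39, and over the 17 CTCs of mouse 5546 it was 0.28, beside 0.08. Among the 9 c libraries it was 0.03, beside 0.02. SPRY4, SPRED1 and SPRED2 also followed the genes detected per cell (ρ of 0.35, 0.37 and 0.44), and DUSP6 did so less (0.09). DUSP4 with ETV4 had 0.54 in mouse 5546, 0.49 in mouse 5545 and 0.22 among the c libraries. SPRY2 with PHLDA1 had 0.39 over all CTCs, and DUSP4 with DUSP5, both nuclear phosphatases, had -0.16.

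**Figure D4:**
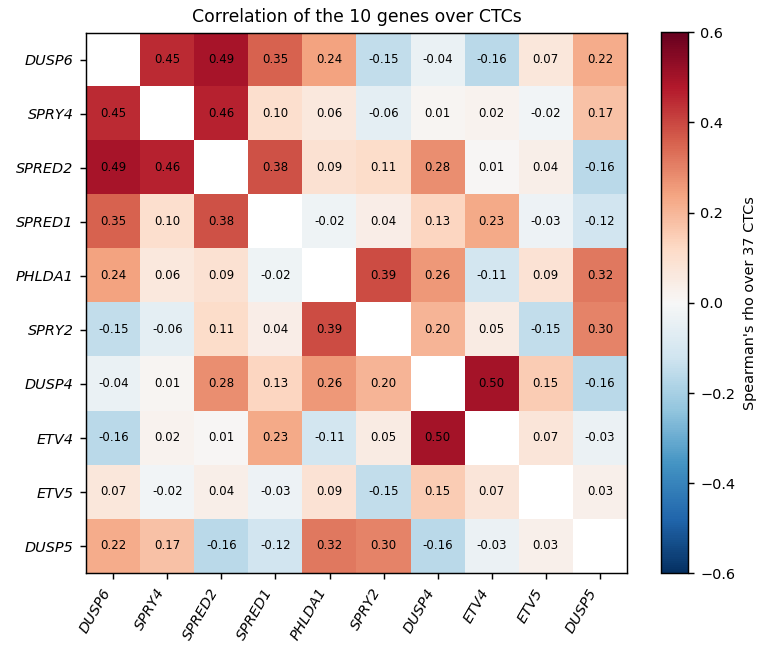
Spearman's ρ over 37 CTCs for each pair of the 10 genes, in color from -0.6 to 0.6 with the value in each square. The warm squares at the upper left are DUSP6, SPRY4, SPRED2 and SPRED1, and DUSP4 with ETV4 has the highest value, 0.50.

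Of 2631 other genes detected in at least 30 CTCs after thinning, the 5 most like the 10 genes were found by ρ with the sum of their log2 values over the 37 CTCs. These were FAM177A1 (0.60), PKIG (0.59), FBXW5 (0.59), WBP2 (0.56) and PFDN1 (0.56), beside a median of 0.10. The sum itself had a ρ of 0.46 with the genes detected per thinned cell, and these 5 genes had 0.49, 0.29, 0.47, 0.22 and 0.55 with it.

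The cascade above these outputs was examined with a list of 20 genes. All 20 matched and 17 had a mean of at least 8, and 0 met the 4-fold rule. Of the 17, 3 were more than 2-fold lower than culture in every mouse, SHC1, a receptor adaptor, and ARAF, a kinase, among them, beside the 25.3% of all genes that met the 2-fold rule. Of the 17, 7 were below culture in every mouse, a smaller share than the 60.3% of all genes. The mean log2 ratio was -2.67 for SHC1 and -3.52 for ARAF. On RPM it was -1.95 and -2.98, with every mouse below culture for both, and edgeR called neither. The median log2 ratio of the 17 was -1.09, beside -0.95 for the 10 output genes and -1.56 for all genes. By the mean over all CTCs, the 2 highest of the list were MAP2K2, which encodes MEK2, at 137 (culture 257), and GRB2, an adaptor, at 115 (culture 263). The 2 lowest were KSR1, a scaffold, at 0.25 and MAPK3, which encodes ERK1, at 7.54.

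Other output genes numbered 17, of which 15 matched and 13 had a mean of at least 8, and 0 met the 4-fold rule. EPHA2, a receptor tyrosine kinase, was the only one more than 2-fold lower in every mouse (mean log2 ratio -2.36), and 3 of the 13 were below culture in every mouse, again a smaller share than the 60.3% of all genes. By the mean over all CTCs, the highest were PHLDA2 at 894 (culture 1563) and CCND1, cyclin D1, at 663 (culture 1400), and the lowest were SPRED3 at 0.061 and EPHA4 at 3.29. The median log2 ratio of the 13 was -1.27. Of 5 other dual-specificity phosphatases, which act mostly on other MAP kinases or are induced by stress, 2 had a mean of at least 8. DUSP1 had a mean over all CTCs of 955 and of 245 in culture, with a mean log2 ratio of 1.61 and 4 of 5 mice above culture, and on RPM all 5 mice were above (2.36). In edgeR its log2 fold change was 2.94 ± 0.92 (SE) with an unadjusted p of 0.00771 and an adjusted p of 1.00, so it was not called. DUSP10 was at 5.04 over all CTCs and 37.7 in culture (mean log2 ratio -3.35), and the lowest, DUSP8 and DUSP2, were at 0.035 and 1.11.

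**Figure D5:**
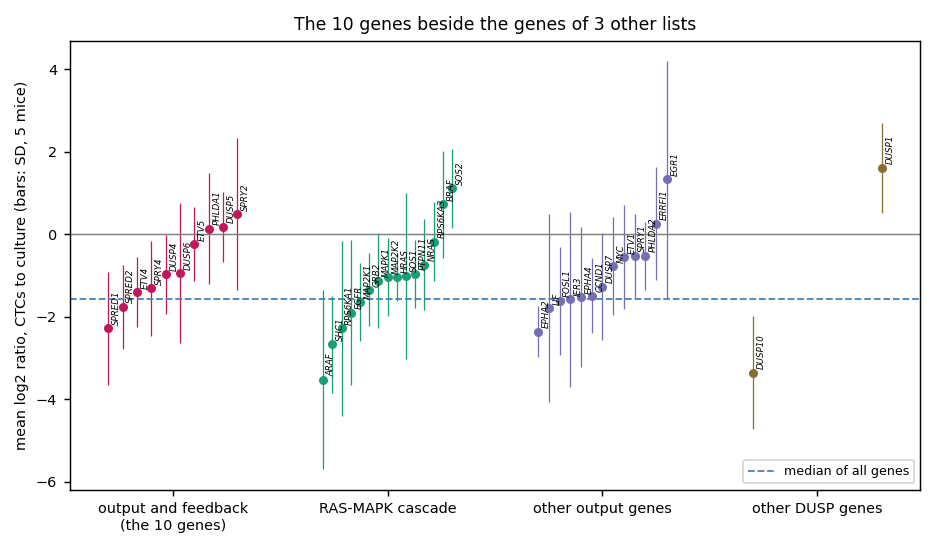
Mean log2 ratio of CTCs to culture over 5 mice (bars, SD) on normalized counts for the genes of 4 lists with a mean of at least 8, with the median of all genes dashed and 2 cascade genes not drawn. The 10 genes span -2.28 (SPRED1) to 0.49 (SPRY2), and the cascade -3.52 (ARAF) to 1.11 (SOS2).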

How the data were processed

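Single-cell SMARTseq2 libraries of 37 CTCs and 6 cultured LM2 cells were used, from 47 labelled cells of which 4 CTCs had been left out by the authors. As deposited, values are a signal: the authors aligned reads with STAR 2.7.10a to GRCh38 with GENCODE 38, counted unique reads without strand and scaled each cell by a DESeq2 (1.42.1) size factor. Dividing by the step of each cell returned whole reads for 100% of values (tolerance 0.001), used for RPM, thinning to 469614 reads and summing.

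Names came from GENCODE 44, which matched 25659 of the 25739 genes by ID. The mouse was the replicate of CTCs and the culture 1 sample. The rule of size asked for a mean at least 4-fold from culture in 1 direction in each of 5 mice, with 1 added to both means, and a larger mean of at least 8. Summed reads were tested in edgeR 4.0.16 (quasi-likelihood, TMM, filterByExpr, Benjamini-Hochberg over all genes) and with DESeq2 1.42.0 in R 4.3.3. A gene was detected at a value above 0. Genes per cell were counted over genes present in at least 5 cells. Calculations used Python 3.11.15, pandas 2.3.3 and scipy 1.17.1, and were tested on simulated data.

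The 10 genes and the other lists were chosen with earlier results of these data known. Genes named besides the 10 were, in each list, those meeting the rule of size and the 2 highest and 2 lowest by the mean over CTCs, and the 5 genes nearest in pattern. SHC1, ARAF, EPHA2, DUSP10, SOS2, EGR1, ERRFI1 and genes that share exonic bases were named after their values were seen. The counts of genes below culture in every mouse, the SDs and the scales side by side were added after the values were seen. Alternatives were other averages, scales, pseudocounts and folds, and leaving out mice, cultured cells, the s libraries and CTC 5545-6. The other data of the study were not analysed here. Some genes of the lists are counted but not reported by name here.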

Additional observations from a re-analysis of the deposited data

Results flagged for a closer look

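In 20 groups examined (the 5 mouse means and the 6 cultured cells of each gene), chance alone flags about 1 in 20, and 3 groups had a value far from the others. The DUSP4 mean of mouse 5541 was 507, and the next highest mouse mean was 203. The DUSP6 mean of mouse 5542 was 779, next to 174, and came from 5542-4 (1647) and 5542-1 (1154). The SPRY2 mean of mouse 5541 was 801, next to 83.0, and came from 5541-1 (1432). Mouse 5541 gave 2 CTCs and mouse 5542 gave 4, so that single cells weigh heavily in these means. Whether 3 flags exceed chance for such uneven means was not tested.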

How the results depend on the processing

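No paired analysis was possible because CTCs and cultured cells share no replicate numbers. Of 88 alternative values of the main results, 78 kept their side or size. The count meeting the rule of size was 1 (SPRED1) with medians in place of means, beside 16.6% of 8177 genes. It was 0 in the other alternatives, beside 4.53 to 8.28% of all genes with 1 mouse or cultured cell left out. The median log2 ratio of the 10 genes was -1.55 with medians, -0.28 on RPM, -0.25 with thinned cells and -0.53 with the mean over all CTCs, and -1.05 to -0.77 when 1 mouse or cultured cell was left out. The count below culture in every mouse was 0 on RPM and 0 with thinned cells, beside 34.7% and 34.5% of all genes. It was 2 to 5 with 1 mouse or cultured cell left out, beside 55.9 to 67.5% of all genes. The median number of genes detected per CTC was 7 at a value of at least 8 and 9 without the s libraries. The median ρ over pairs was 0.04 to 0.13 with 1 mouse left out. On summed reads 0 of the 10 genes were called in the alternative fits of edgeR, and 0 of the 9 tested in DESeq2. Over all genes the calls were 27 with no filter on low counts, 20 with DESeq2, 1 without mouse 5545 and 0 in the other fits. Signs of the mean log2 ratio changed under 1 or more alternatives for DUSP5, SPRY2, PHLDA1 and ETV5, and the cause was not tested. In edgeR the log2 fold change of DUSP4, DUSP6 and SPRY4 also had the other sign. Because edgeR differs both in scale and in how mice are averaged, that turn cannot be put down to scale alone. SPRED1 and SPRED2 were the least often detected, in 56.8% and 48.6% of CTCs, and in 51.4% and 43.2% with thinned cells. SPRY4 went from 70.3% to 64.9%. The part of depth in these shares was not tested.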
